A study of Mus musculus with 9 samples.

Results

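The miR-99/100 and miR-125 families were measured by small RNA sequencing of mouse quadriceps as 10 mature miRNAs, chosen by name from the 1966 mature miRNAs listed in the count table. They were mmu-miR-99a-5p, mmu-miR-99b-5p, mmu-miR-99b-3p, mmu-miR-100-5p, mmu-miR-100-3p, mmu-miR-125a-5p, mmu-miR-125a-3p, mmu-miR-125b-5p, mmu-miR-125b-1-3p and mmu-miR-125b-2-3p, named without the mouse prefix from here on, and all 10 had counts. The rule used their names and not their values, although the families were picked with earlier results of these data known. The question was how the products of each locus, and the 2 arms of each hairpin, stood in muscle without Mbnl1 or Mbnl2.

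The study examined the small RNAs of muscle that lacked a muscleblind-like protein, a family of RNA-binding proteins that control alternative splicing and are sequestered in myotonic dystrophy. The libraries came from quadriceps of mice labelled as 90 days old, with 3 WT, 3 Mbnl1KO and 3 Mbnl2KO libraries. The WT mice were C57BL/6J with intact Mbnl1 and Mbnl2 (Mbnl1+/+, Mbnl2+/+), and the Mbnl1KO mice were C57BL/6J carrying the Mbnl1 deltaE3/deltaE3 deletion. The Mbnl2KO mice were labelled as on the B6.C-Tg(CMV-cre)1Cgn/J background, so that by its label this group differed from the others in strain background as well as in Mbnl2. The study's text, in contrast, calls the WT mice littermates. It was not checked whether the Mbnl2KO mice carried the Cre transgene named in that label. Their Mbnl2 alleles were labelled deltaE2/deltaE2, deltaE2/deltaE3 and deltaE2/deltaE4 in replicates 1, 2 and 3, whereas the study's text names deltaE2/deltaE2 alone, and the files do not settle which holds. Mbnl mRNAs were not measured in small RNA libraries, so the genotypes could not be checked against expression of the targeted genes. Whole muscle was used, and fewer cells of a type cannot be told apart from less RNA per cell.

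miR-99/100 and miR-125 are old animal miRNA families whose genes lie beside let-7 genes in shared primary transcripts. Drosha cuts each hairpin from the primary transcript, Dicer removes its loop, and as a rule one arm of the resulting duplex is kept by Argonaute as the guide while the other is degraded. The guide finds targets mainly through its seed, bases 2 to 8. miR-99/100 guides are known for restraining mTOR and insulin-like growth factor signalling, and miR-125 guides for roles in stem cells, immune cells and muscle differentiation.

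The 5 guides are shown first because their seeds define the families (RefSeq, GRCm38.p6, 5′ to 3′, seed in capitals). All 10 members were matched by name to this reference, and the first 3 below share one seed while the last 2 share another.
miR-99a-5p: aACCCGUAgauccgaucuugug
miR-100-5p: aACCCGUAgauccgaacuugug
miR-99b-5p: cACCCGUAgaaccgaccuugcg
miR-125a-5p: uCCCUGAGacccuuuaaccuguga
miR-125b-5p: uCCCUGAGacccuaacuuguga

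miR-99a-5p and miR-100-5p differed at 1 of 22 bases, U16A, counted from 1 at the 5′ end of miR-99a-5p. miR-99b-5p differed from miR-99a-5p at 4 bases (A1C, U11A, U16C and U21C), none within the seed. miR-125a-5p, with 24 bases, and miR-125b-5p, with 22, were the same over their first 13 bases. No other mouse miRNA of the reference had the miR-99/100 seed. The miR-125 seed was also found in miR-351-5p, miR-6367 and miR-6394, of which the last 2 were listed at 0 in all 9 libraries.

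The 3p arms are shown because they tell apart hairpins that give the same or nearly the same guide.
miR-100-3p: aCAAGCUUgugucuauagguau
miR-99b-3p: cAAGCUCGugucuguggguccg
miR-125b-1-3p: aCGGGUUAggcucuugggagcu
miR-125b-2-3p: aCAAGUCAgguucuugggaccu
miR-125a-3p: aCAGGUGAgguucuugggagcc

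miR-125b-1-3p and miR-125b-2-3p differed at 5 of 22 bases, of which G3A, G4A and U7C lay in the seed, so that the 2 hairpins share a guide but not the seed of the other arm. Among these 5 arms only miR-99b-3p shared its seed with another mouse miRNA of the reference, miR-99a-3p. miR-99a-3p, the arm opposite miR-99a-5p, had between 0 and 5 counts per library and was not tested.

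The hairpins lie in 3 loci, each with a let-7 hairpin between a miR-99/100 hairpin and a miR-125 hairpin (GRCm39, GENCODE M39, all on the plus strand). On chromosome 9, Mir100 (chr9:41442721-41442800), Mirlet7a-2 (chr9:41448012-41448107) and Mir125b-1 (chr9:41493222-41493298) lay in introns of every annotated transcript of the long noncoding RNA Mir100hg that spans them. On chromosome 16, Mir99a (chr16:77395824-77395888), Mirlet7c-1 (chr16:77396545-77396638) and Mir125b-2 (chr16:77443161-77443231) lay likewise in introns of the long noncoding RNA Mir99ahg. On chromosome 17, Mir99b (chr17:18050450-18050519), Mirlet7e (chr17:18050614-18050706) and Mir125a (chr17:18051074-18051141) lay within the protein-coding gene Spaca6. Mir99b and Mirlet7e were intronic in both Spaca6 transcripts over them, whereas Mir125a was intronic in 2 and overlapped an exon in 1 of 3. The chromosome 17 hairpins were the closest together, with 554 bases between Mir99b and Mir125a. The corresponding gaps were 50421 bases on chromosome 9 and 47272 bases on chromosome 16.

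The position of each mature sequence shows which members report on which locus. The sequence of miR-125b-5p was found in both the chromosome 9 and the chromosome 16 hairpin, so its count is a sum over 2 loci. The other 9 members were each found in 1 hairpin. miR-100-5p, miR-100-3p and miR-125b-1-3p reported on chromosome 9 alone. miR-99a-5p and miR-125b-2-3p reported on chromosome 16, and miR-99b-5p, miR-99b-3p, miR-125a-5p and miR-125a-3p on chromosome 17.

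Library totals ranged from 4761271 to 6277018 counts, and the 10 members together took 0.834% to 1.17% of them. miR-1a-3p, the main miRNA of muscle fibres, took 61.4% to 73.7%, so that the main marker of the labelled tissue was present in every library. Levels are given as normalized counts, that is counts scaled by trimmed mean of M values (TMM) factors of 0.826 to 1.31 to a common library size. The levels below use one scaling of all 9 libraries, and each fold change comes from a fit of the 6 libraries compared.

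In WT muscle the guides far exceeded the other arms. miR-125a-5p had the highest level of the 10 (21590 ± 3110 normalized counts, SD, n = 3) and ranked 16 among all miRNAs. miR-125b-5p followed with 18682 ± 1629 at rank 20, and their WT ranges overlapped. miR-99a-5p (7904 ± 706, rank 30) and miR-100-5p (7133 ± 332, rank 32) were next, again with overlapping ranges, and miR-99b-5p stood below them at 2878 ± 206 (rank 51). The 5 other arms had WT means between 8.36 and 47.6 normalized counts, at ranks 202 to 324. Counts of different miRNAs also reflect how well each ligates to the adapters, which was not measured.

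**Figure D1:**
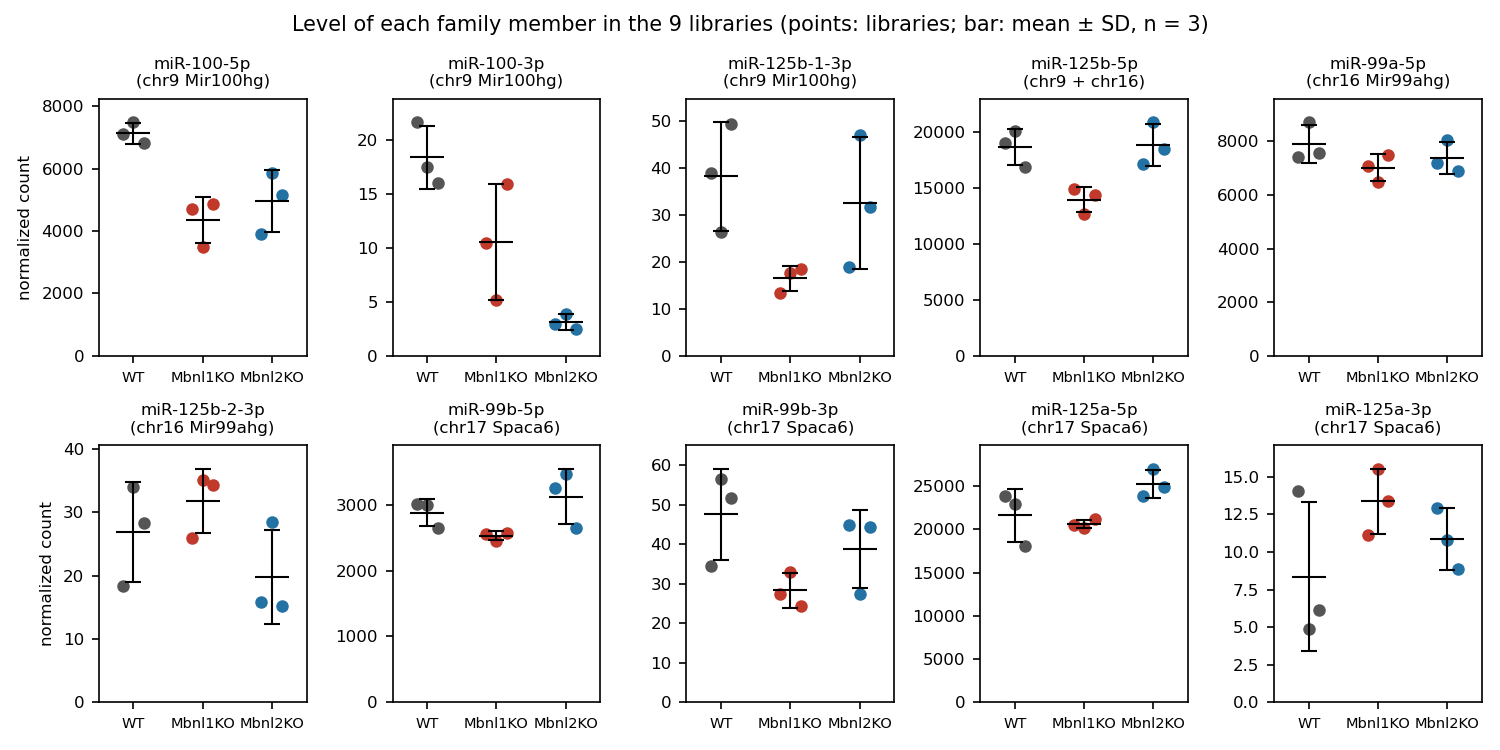
Normalized counts (vertical axes, from 0) of the 10 members in each library, grouped on the horizontal axis as WT, Mbnl1KO and Mbnl2KO, with bars for the mean and SD of 3 libraries. miR-100-5p lies at 6823 or above in WT and at 5849 or below in both knockouts, whereas the points of miR-99a-5p overlap between the groups.

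In Mbnl1KO muscle 3 members were called as lower than in WT, all of them given wholly or in part by the chromosome 9 locus. Of its 3 own members miR-100-5p and miR-125b-1-3p fell, as did miR-125b-5p, which it shares with chromosome 16. No member rose. The test was the quasi-likelihood F-test of edgeR, with p adjusted by Benjamini and Hochberg's method over all 317 miRNAs tested. These 3 of 10 compare with 14.2% of all tested miRNAs that were lower by the same rule (33.1% were called in either direction, 18.9% as higher). The median log2 fold change over the 10 members was -0.30, beside -0.01 over all tested miRNAs and -0.26 over the 9 let-7 family miRNAs tested. The 2 members that lie only on chromosome 16 and the 4 on chromosome 17 did not pass the test. Nor did miR-100-3p of chromosome 9, whose log2 fold change of -0.78 was close to the -0.76 of miR-99b-3p of chromosome 17. Passing in some members and not in others does not by itself show that the loci differ.

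miR-100-5p, the guide of the chromosome 9 miR-100 hairpin, had normalized counts of 7092, 7483 and 6823 in WT and of 4702, 3502 and 4865 in Mbnl1KO. The highest Mbnl1KO library was below the lowest WT library. The level fell by 39.0%, a log2 fold change of -0.71 (SE 0.14, adjusted p = 3.09e-05). Leaving out each of the 6 libraries in turn kept it past the threshold, with values from -0.80 to -0.55. With library totals as the only scaling the value was -0.40 (adjusted p = 0.083).

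miR-125b-1-3p, which only the chromosome 9 hairpin Mir125b-1 gives, had 38.9, 26.3 and 49.3 normalized counts in WT and 13.4, 17.6 and 18.4 in Mbnl1KO. The groups did not overlap, on raw counts of 27 to 40 and 17 to 22 per library. The log2 fold change was -1.20 (SE 0.34, adjusted p = 0.0034), and it passed the threshold in all 6 fits that left out 1 library, between -1.43 and -0.99. Its sister miR-125b-2-3p from chromosome 16 had 18.4, 34.1 and 28.3 in WT and 26, 35.2 and 34.3 in Mbnl1KO. Those groups overlapped (log2 fold change 0.23, SE 0.33, adjusted p = 0.641, 95% interval -0.42 to 0.88).

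miR-125b-5p, the guide that both hairpins supply, had 19069, 20082 and 16895 normalized counts in WT and 14911, 12696 and 14359 in Mbnl1KO. All Mbnl1KO libraries were lower. The level fell by 25.3% (log2 fold change -0.42, SE 0.15, adjusted p = 0.0178). This call was the least firm of the 3, because the adjusted p rose above 0.05 without WT replicate 1, WT replicate 2 or Mbnl1KO replicate 2, with values from -0.49 to -0.33 over the 6 fits. It was also lost with library totals alone, where the value was -0.11 (adjusted p = 0.663), and with totals without miR-1a-3p (-0.35, adjusted p = 0.0554).

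miR-100-3p, the arm opposite miR-100-5p, had 21.6, 17.5 and 16 normalized counts in WT and 10.4, 5.17 and 15.9 in Mbnl1KO. The groups did not overlap but came close, and the difference did not pass (log2 fold change -0.78, SE 0.40, adjusted p = 0.124). In all, 6 of the 10 members had every Mbnl1KO library below every WT library, which was the case for 22.7% of all tested miRNAs (44.8% did not overlap in one direction or the other). Besides the 4 above these were miR-99b-5p and miR-99b-3p.

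miR-99a-5p, the chromosome 16 guide that is 1 base away from miR-100-5p, had 7432, 8716 and 7563 normalized counts in WT and 7098, 6493 and 7493 in Mbnl1KO. The groups overlapped, with a log2 fold change of -0.17 (SE 0.14, adjusted p = 0.361) and an interval of -0.45 to 0.11.

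The chromosome 17 guides did not pass in Mbnl1KO. miR-99b-5p had 3005, 2989 and 2639 in WT against 2559, 2448 and 2576 in Mbnl1KO (log2 fold change -0.19, SE 0.15, adjusted p = 0.31). miR-125a-5p had 23867, 22857 and 18046 in WT against 20431, 20187 and 21163 in Mbnl1KO (log2 fold change -0.07, SE 0.15, adjusted p = 0.754). The signs of miR-99a-5p, miR-99b-5p and miR-125a-5p turned positive with library totals alone, and none passed in either scaling. Of the other arms, miR-99b-3p had 34.6, 56.4 and 51.7 in WT and 27.5, 33.1 and 24.3 in Mbnl1KO, and its difference missed the threshold narrowly (log2 fold change -0.76, SE 0.31, adjusted p = 0.0518; 0.0474 with DESeq2 size factors). miR-125a-3p, at 5 to 16 counts per library, overlapped between the groups. Its mean was 8.36 normalized counts in WT, under the minimum, and 13.4 in Mbnl1KO, through which alone it passed, so its fold change is not read.

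The choice of scaling weighed on this comparison. With library totals alone, the median log2 fold change over the tested miRNAs became 0.30, and 90.1% of the 101 calls were then higher in Mbnl1KO, against 57.1% of 105 with TMM. The normalized counts of miR-1a-3p were lower in all Mbnl1KO libraries than in all WT libraries (log2 fold change -0.40, SE 0.16, adjusted p = 0.0502), and with miR-1a-3p left out of the totals the median was 0.05. Ratios of 2 members within a library do not depend on the scaling.

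**Figure D2:**
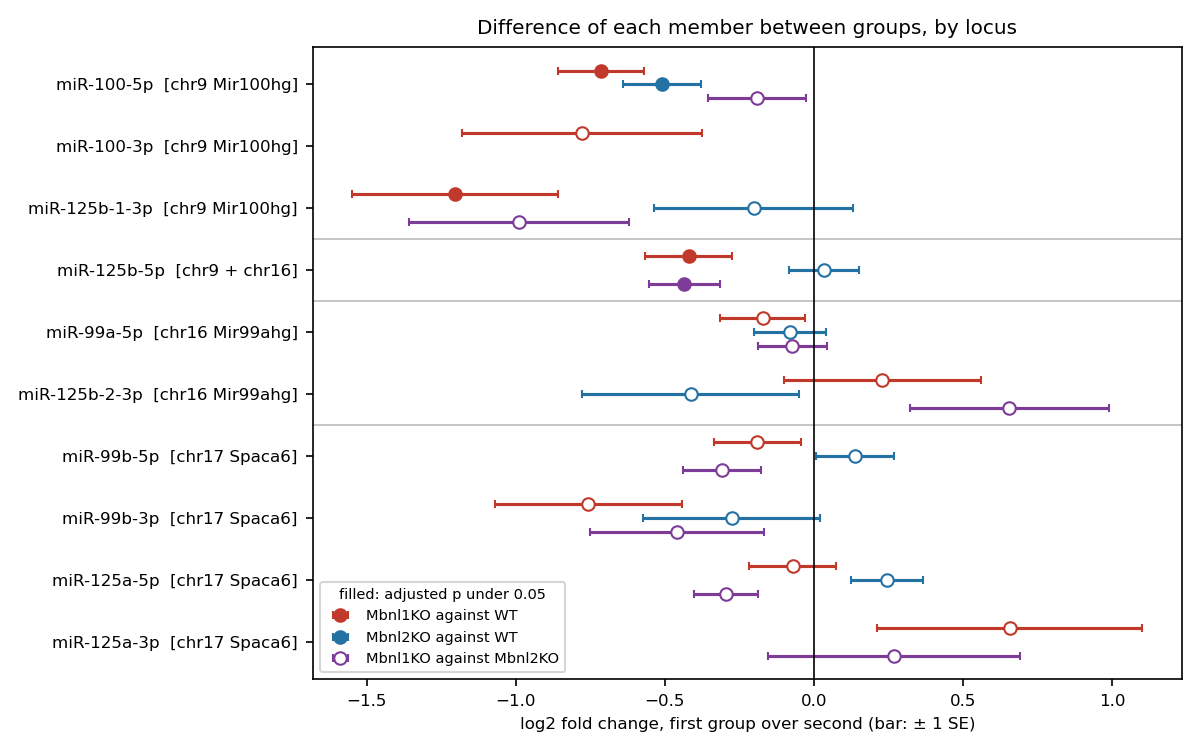
Log2 fold change (horizontal axis, with bars of 1 SE) of each member in the 3 comparisons, ordered by locus, with filled points where the adjusted p was under 0.05. The 3 filled points of Mbnl1KO against WT are miR-100-5p, miR-125b-1-3p and miR-125b-5p, and comparisons in which a member missed the minimum level have no point.

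In Mbnl2KO muscle miR-100-5p was again lower, and the other products did not pass. Only 1 of the 8 members tested was called, and 293 miRNAs were tested, of which 5.80% were called in either direction, 2.39% as lower and 3.41% as higher. Groups without overlap were seen for 23.2% of all tested miRNAs, 10.6% with Mbnl2KO lower, and for 2 of the 8 members, miR-100-5p below WT and miR-125a-5p above it. miR-100-3p and miR-125a-3p, with means of 9.92 and 8.92 normalized counts, missed the minimum mean of 10. The comparison uses the same WT libraries as the one of Mbnl1KO, so the 2 are not independent.

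miR-100-5p had 3893, 5849 and 5160 normalized counts in Mbnl2KO, all below the lowest WT library at 6823. The log2 fold change was -0.51 (SE 0.13, adjusted p = 0.0202), so that the level fell by 29.7%. The call was lost without WT replicate 1, WT replicate 2 or Mbnl2KO replicate 1 (values from -0.59 to -0.42, highest adjusted p = 0.114). It was also lost with library totals alone (-0.51, adjusted p = 0.0965) and with all 9 libraries in 1 fit (-0.52, adjusted p = 0.0566).

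miR-100-3p was the member with the lowest level in this group. It had raw counts of 20, 18 and 13 in WT, of 14, 5 and 19 in Mbnl1KO, and of 3, 4 and 2 in Mbnl2KO. In normalized counts the Mbnl2KO libraries stood at 2.99, 3.92 and 2.53, below every library of the other groups. With no minimum level the log2 fold change against WT was -2.47 (SE 0.61). It is given as a value only, since the arm had a mean of 18.4 normalized counts in WT and of 3.15 in Mbnl2KO. At 9 counts over 3 libraries the size of this difference is imprecise.

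The remaining members did not pass in Mbnl2KO. miR-125b-5p, at 17167, 20905 and 18549, had a log2 fold change of 0.03 (SE 0.12, adjusted p = 0.922). miR-99a-5p, at 7187, 8041 and 6904, had -0.08 (SE 0.12, adjusted p = 0.774). miR-125b-1-3p ranged from 18.9 to 47.0 and overlapped WT (-0.20, SE 0.33, adjusted p = 0.787), as did miR-125b-2-3p, which ranged from 15.2 to 28.4 (-0.41, SE 0.36, adjusted p = 0.563).

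On chromosome 17, miR-125a-5p had 23818, 26980 and 24879 normalized counts in Mbnl2KO. In the scaling of those 6 libraries alone every Mbnl2KO library was above every WT library, but in the scaling of all 9 the lowest Mbnl2KO library was just under the highest WT library, and the difference did not pass (0.24, SE 0.12, adjusted p = 0.295). miR-99b-5p had 3251, 3464 and 2651 (0.14, SE 0.13, adjusted p = 0.583), and miR-99b-3p 44.8, 27.4 and 44.3 (-0.28, SE 0.30, adjusted p = 0.647).

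The direct comparison of the knockouts, which leaves WT out, called 1 of 9 members tested. miR-125b-5p was lower in Mbnl1KO than in Mbnl2KO, with no overlap between 12696 to 14911 and 17167 to 20905 normalized counts (log2 fold change -0.43, SE 0.12, adjusted p = 0.0133). Among the 309 miRNAs tested 26.9% were called, 11.7% as lower and 15.2% as higher in Mbnl1KO. The call was lost without Mbnl2KO replicate 2 (adjusted p = 0.0507) and with library totals alone (-0.14, adjusted p = 0.626). miR-100-5p, lower than WT in both, was not shown to differ between them (-0.19, SE 0.16, adjusted p = 0.388, interval -0.51 to 0.13). Against Mbnl2KO, miR-125b-1-3p had -0.99 (SE 0.37, adjusted p = 0.0581), miR-125a-5p -0.30 (SE 0.11, adjusted p = 0.0529) and miR-99b-5p -0.31 (SE 0.13, adjusted p = 0.0924), with no overlap between the groups but no call. Of all tested miRNAs 47.9% had groups without overlap, 24.3% with Mbnl1KO lower, and of the 9 members 4 did, all with Mbnl1KO lower.

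Comparing loci within each library removed the scaling of libraries. For 11 ratios the 3 groups were compared by an exact permutation test of the F statistic over 1680 assignments (two-sided, smallest possible p = 0.0036), with Benjamini-Hochberg adjustment over the 11. Between 2 groups of 3 the smallest p is 0.1.

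The nearly identical guides miR-100-5p (chromosome 9) and miR-99a-5p (chromosome 16) stood close to equal in WT and apart in both knockouts. Their log2 ratio was -0.07, -0.22 and -0.15 in WT, -0.59, -0.89 and -0.62 in Mbnl1KO and -0.88, -0.46 and -0.42 in Mbnl2KO. All 6 knockout libraries were below all WT libraries, by means of -0.56 and -0.44 (exact p = 0.0214 over 3 groups, adjusted p = 0.0589; p = 0.1 for each knockout against WT). The exact p passed 0.05 in 5 of 9 repeats that left out 1 library and reached 0.125 in the others. Against miR-99b-5p of chromosome 17 the WT log2 ratios of miR-100-5p, 1.24, 1.32 and 1.37, were likewise all above those of Mbnl1KO (0.88, 0.52 and 0.92) and Mbnl2KO (0.26, 0.76 and 0.96), with exact p = 0.0571 and adjusted p = 0.105.

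The 3p arms set Mir125b-1 against Mir125b-2 directly. The log2 ratio of miR-125b-1-3p to miR-125b-2-3p was 1.06, -0.37 and 0.79 in WT, -0.94, -0.98 and -0.88 in Mbnl1KO, and 0.24, 0.72 and 1.03 in Mbnl2KO. Mbnl1KO was thus the one group in which the chromosome 9 arm had fewer counts than the chromosome 16 arm in all 3 libraries, and it lay below every library of the other groups (exact p = 0.0321, adjusted p = 0.0707). The ratio passed an exact p of 0.05 in 3 of 9 repeats without 1 library, with the highest p at 0.0679.

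The 3 ratios to miR-125b-5p were those that passed after adjustment over the 11. miR-125b-5p shares a locus with miR-100-5p on chromosome 9 and with miR-99a-5p on chromosome 16, but none with miR-125a-5p. miR-125a-5p to miR-125b-5p had mean log2 ratios of 0.20 (SD 0.12) for WT, 0.56 (SD 0.11) for Mbnl1KO and 0.42 (SD 0.05) for Mbnl2KO, and all 6 knockout libraries were above the 3 WT libraries (exact p = 0.0071, adjusted p = 0.0393). miR-99a-5p to miR-125b-5p had means of -1.24 (SD 0.10) in WT, -0.99 (SD 0.07) in Mbnl1KO and -1.35 (SD 0.09) in Mbnl2KO, and the Mbnl1KO libraries were above all 6 others (exact p = 0.0071, adjusted p = 0.0393). For miR-100-5p to miR-125b-5p the means were -1.39 (SD 0.07), -1.70 (SD 0.15) and -1.94 (SD 0.17) in the same order, and all knockout libraries were below all WT libraries (exact p = 0.0107, adjusted p = 0.0393). The exact p of these 3 ratios stayed under 0.05 in all 9 repeats without 1 library.

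The other ratios between products of one transcript did not pass. On chromosome 17 miR-99b-5p to miR-125a-5p had mean log2 ratios of -2.90 (SD 0.11) in WT, -3.03 (SD 0.03) in Mbnl1KO and -3.02 (SD 0.19) in Mbnl2KO, and a difference was not detectable (exact p = 0.489). The ratios of these 2 guides to let-7e-5p, from the hairpin between them, gave exact p = 0.507 for miR-99b-5p and 0.254 for miR-125a-5p. On chromosome 16 miR-99a-5p to let-7c-5p gave exact p = 0.257, but let-7c-5p also comes from another gene. The last ratio, miR-99b-5p to miR-99a-5p of different loci, gave exact p = 0.0929.

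**Figure D3:**
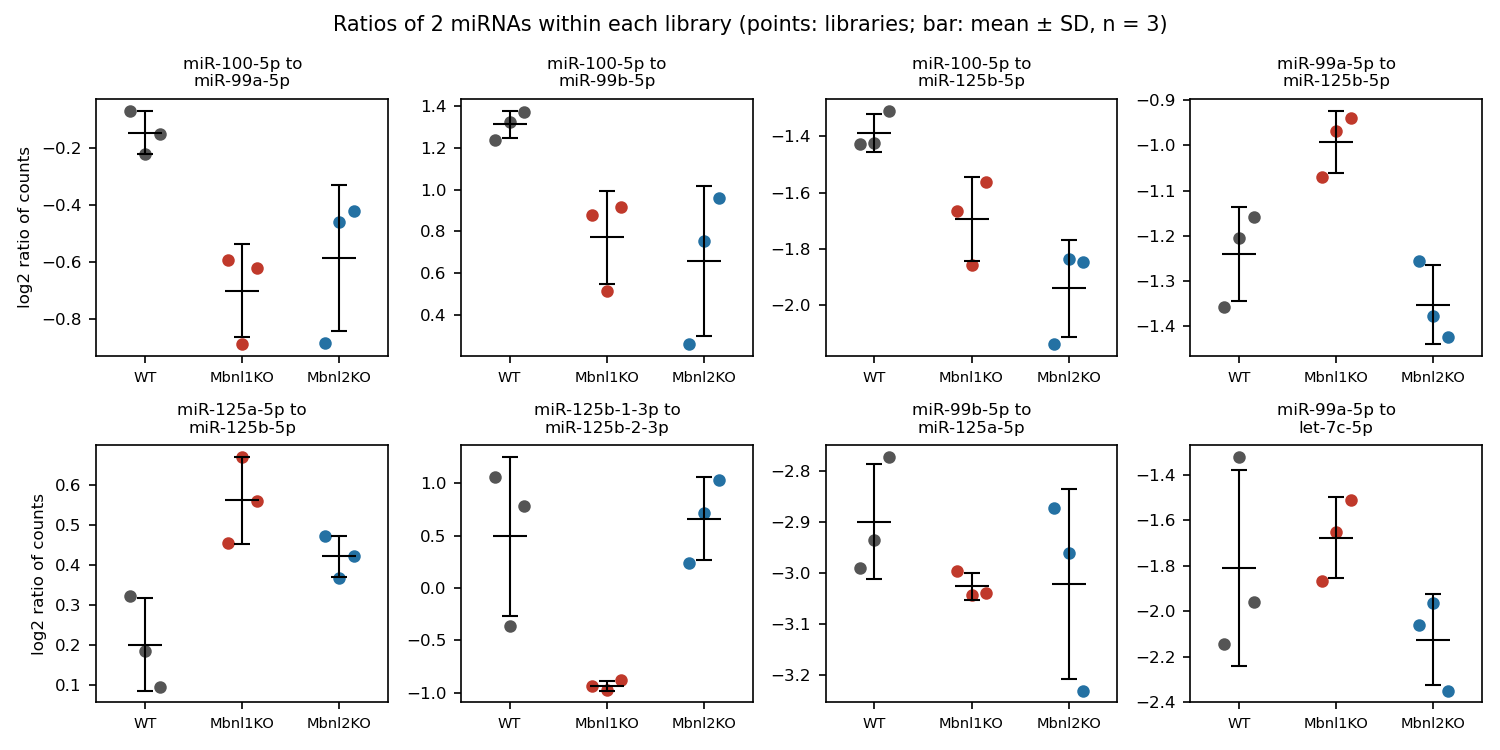
Log2 ratio of the counts of 2 miRNAs within each library (vertical axes) for 8 of the 11 ratios, grouped as WT, Mbnl1KO and Mbnl2KO, with bars for the mean and SD of 3 libraries. Both knockouts lie below WT for miR-100-5p to miR-99a-5p, and only Mbnl1KO lies below the others for miR-125b-1-3p to miR-125b-2-3p.

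Among the guides with the miR-99/100 seed, the share of miR-100-5p was lower in both knockouts. It made up 40.5%, 39.0% and 40.1% of the counts with the miR-99/100 seed in WT, 32.7%, 28.1% and 32.6% in Mbnl1KO and 27.2%, 33.7% and 35.1% in Mbnl2KO. No knockout library reached the lowest WT share. miR-99a-5p took 44.1% ± 1.54 in WT, 50.6% ± 1.42 in Mbnl1KO and 47.8% ± 2.05 in Mbnl2KO (SD, n = 3), and miR-99b-5p took 16.1% ± 0.925, 18.2% ± 1.27 and 20.2% ± 2.35. In a single library the exact 95% binomial interval, which covers counting error only, ran from 41.6% to 43.2% for miR-99a-5p in WT replicate 1. For miR-100-5p in WT the intervals, for example 39.7% to 41.2% in replicate 1, were about as wide as the range of the 3 libraries.

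In the miR-125 seed family miR-125a-5p was the larger part in every library. Its share was 53.5% ± 1.98 in WT, 59.6% ± 1.79 in Mbnl1KO and 57.2% ± 0.886 in Mbnl2KO (SD, n = 3), with every knockout library (56.3% or more) above every WT library (55.6% or less). Adding miR-351-5p, the third expressed miRNA with this seed, changed the mean of miR-125a-5p to 53.1%, 58.8% and 56.7%. miR-351-5p held 0.814% of that seed in WT, 1.29% in Mbnl1KO and 1.01% in Mbnl2KO. Its own level rose in Mbnl1KO (log2 fold change 0.46, SE 0.17, adjusted p = 0.0293), although the groups overlapped, and had a value of 0.47 in Mbnl2KO (SE 0.15, adjusted p = 0.0743).

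**Figure D4:**
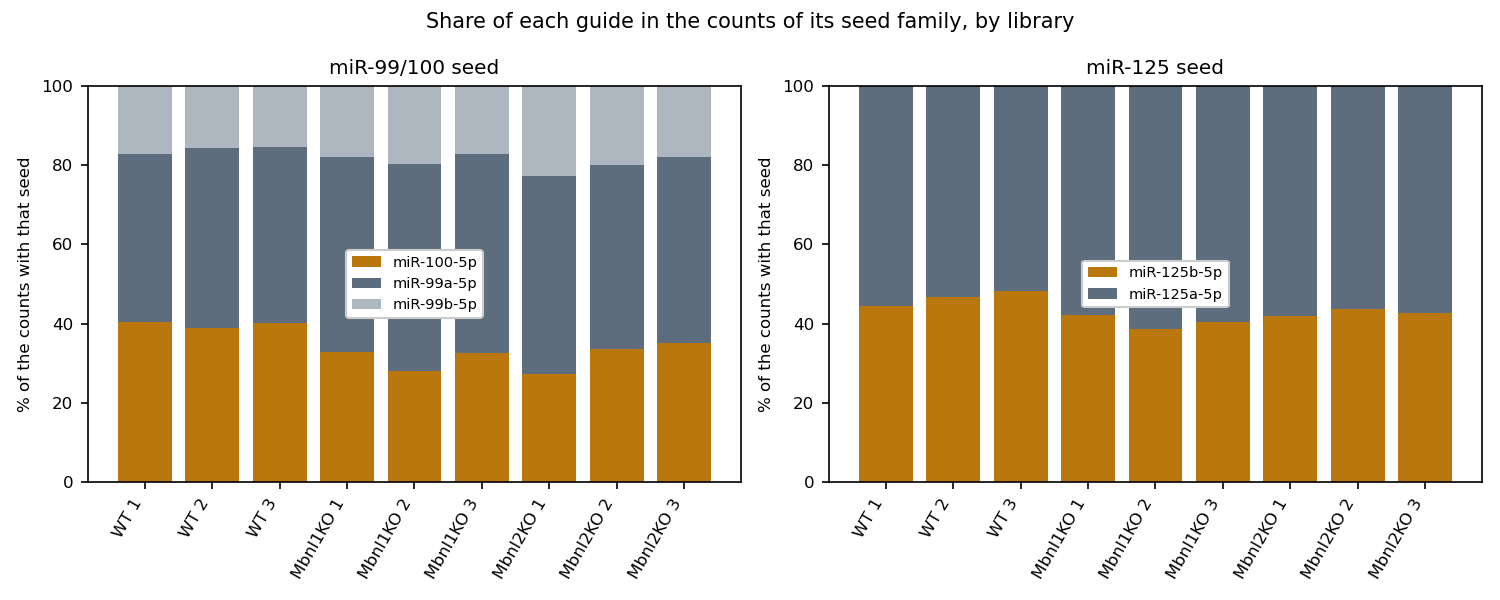
Share of each guide in the summed counts of its seed family (vertical axis, percent) in each of the 9 libraries, with the miR-99/100 seed on the left and the miR-125 seed on the right. The miR-100-5p share is 39.0% or more in WT and 35.1% or less in the knockouts.

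The 2 arms of a hairpin were compared as the log2 ratio of the 5p to the 3p count in each library, with limma across the 93 hairpins that had both arms above the minimum. Between Mbnl1KO and WT 8.60% of hairpins were called, between Mbnl2KO and WT 0.00% (0 hairpins, with 13 at an unadjusted p under 0.05), and between the knockouts 11.8%. None of the 5 member hairpins was called against WT, and miR-125b-2 was called between the knockouts. miR-100 entered this set only through the libraries where miR-100-3p was higher, since the mean of that arm was 9.92 normalized counts in Mbnl2KO with WT and 7.09 in the knockouts, under the minimum of 10. The differences of miR-100 are therefore given as values, without a call. No call is read for miR-125a either, since miR-125a-3p had a mean of 8.36 normalized counts in WT and 8.92 in Mbnl2KO with WT.

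The miR-100 hairpin is shown with its arms in capitals (RefSeq, 80 bases, 5′ to 3′), because its 3p arm had only 2 to 4 counts per library in Mbnl2KO.
Mir100: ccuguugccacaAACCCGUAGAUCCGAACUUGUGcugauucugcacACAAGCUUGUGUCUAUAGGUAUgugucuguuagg

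Mean log2 ratios of miR-100-5p to miR-100-3p were 8.57 in WT, 8.75 in Mbnl1KO and 10.39 in Mbnl2KO. Each Mbnl2KO library (10.13, 10.37 and 10.67) was above each library of the other groups, which ended at 9.27. The mean of Mbnl2KO was above that of WT by 1.82 (SE 0.54), and Mbnl1KO minus Mbnl2KO was -1.64 (SE 0.54). With a pseudocount of 5 the latter was -0.93. The exact permutation test over the 3 groups, which uses no minimum level, gave p = 0.025 for this 1 of 5 hairpins before any adjustment. In shares of the hairpin's counts, the 3p arm took between 0.233% and 0.304% in WT, between 0.147% and 0.326% in Mbnl1KO and between 0.0491% and 0.0766% in Mbnl2KO. In Mbnl2KO replicate 3 the exact 95% binomial interval of the 0.0491% ran from 0.0059% to 0.177%.

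For miR-125b-2 the mean log2 ratios of miR-125b-5p to miR-125b-2-3p were 9.45 in WT, 8.77 in Mbnl1KO and 9.91 in Mbnl2KO. Each Mbnl1KO library (9.14, 8.48 and 8.69) was below each library of the other groups. The exact permutation test over the 3 groups gave p = 0.0393, before any adjustment over the 5 hairpins. Mbnl1KO differed from Mbnl2KO by -1.14 (SE 0.39, limma adjusted p = 0.0275). The call was lost without Mbnl1KO replicate 2 or 3 and without Mbnl2KO replicate 1 or 3 (highest adjusted p = 0.15). The 5p count here includes the guide from chromosome 9, so that this ratio is not of 1 hairpin alone. For miR-125b-1, which shares that 5p count, the means were 8.96, 9.70 and 9.24, and the difference of 0.75 between Mbnl1KO and WT did not pass (SE 0.38, adjusted p = 0.201).

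The chromosome 17 hairpins had the extremes of arm balance, and miR-99b was not called. Relative to the 5p arm, miR-99b had the most 3p counts of the 5 in every group, with mean log2 ratios of 5.93 in WT, 6.47 in Mbnl1KO and 6.33 in Mbnl2KO (exact p = 0.339), and miR-125a the fewest, also in every group, with 11.37, 10.56 and 11.12 (exact p = 0.15).

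**Figure D5:**
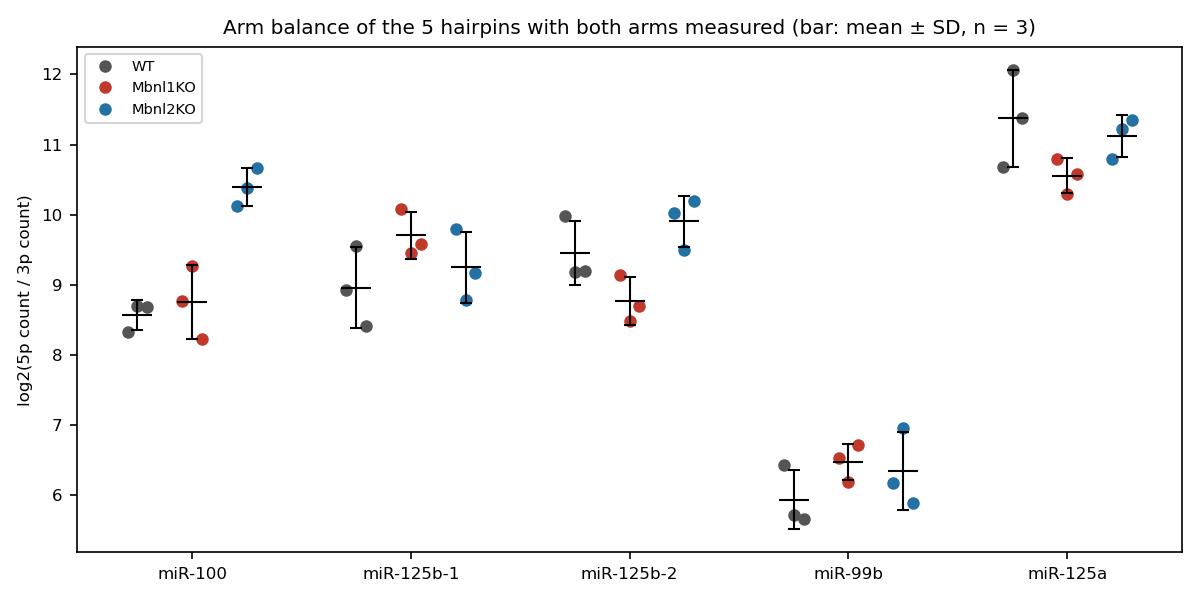
Log2 ratio of 5p to 3p counts (vertical axis) in each library for the 5 hairpins with both arms measured, coloured by group, with bars for the mean and SD of 3 libraries. The Mbnl2KO points of miR-100 start at 10.13, above the highest WT or Mbnl1KO point at 9.27.

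Muscleblind-like proteins bind RNA at the letters GC with a pyrimidine on either side. The sense strand of 4 of the 6 hairpins, Mir100, Mir125b-1, Mir99a and Mir125a, was therefore searched for UGCU and also for CGCU, as well as for the strings UGCC and, lastly, CGCC. Mir100 held UGCU once, at position 33 where the 5p arm meets the loop, and UGCC once, at position 6 before the 5p arm. Mir125b-1 held CGCU once, at position 3, and Mir99a and Mir125a held none. Mir99b and Mir125b-2 were not searched. Of the 1005 mouse hairpins in the reference 41.1% held UGCU, 12.2% CGCU, 34.8% UGCC and 68.1% at least 1 of the 4, so that a match is common.

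The let-7 miRNAs of the same primary transcripts did not pass in either knockout against WT. let-7c-5p, let-7a-5p and let-7e-5p had log2 fold changes of -0.32, -0.23 and -0.37 in Mbnl1KO (adjusted p = 0.09, 0.223 and 0.055) and of 0.22, 0.04 and 0.04 in Mbnl2KO (adjusted p = 0.438, 0.911 and 0.911). let-7c-1-3p, which only the chromosome 16 gene gives, had 8 to 21 counts per library in WT and 7 to 10 in Mbnl1KO. Its mean of 7.54 normalized counts in Mbnl1KO was under the minimum, which it passed only through WT (15.1), and no test of it is given. let-7a-2-3p, the marker of the chromosome 9 let-7 hairpin, had 0 to 5 counts per library and could not be compared. The arm of another let-7a hairpin, let-7a-1-3p, had a WT mean of 74.0 normalized counts in the fit with Mbnl2KO. Thus let-7a-5p does not report on chromosome 9 alone. Of the 10 let-7 family miRNAs 9 were tested and 0 were called against WT in either knockout, beside 33.1% of all tested miRNAs in Mbnl1KO and 5.80% in Mbnl2KO. In Mbnl1KO all 9 had negative values, with a median log2 fold change of -0.26 beside -0.01 over all tested miRNAs. In Mbnl2KO 3 of 9 were negative, with a median of 0.04 beside 0.02. In edgeR's test of the knockouts against each other 3 of 9 were lower in Mbnl1KO, beside 11.7% of all tested miRNAs, namely let-7b-5p (-0.42, adjusted p = 0.0214), let-7c-5p (-0.52, adjusted p = 0.0051) and let-7e-5p (-0.39, adjusted p = 0.0458).

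Some markers of other cell types were called in these libraries, beside 33.1% of all tested miRNAs called in Mbnl1KO against WT. The shares of all tested miRNAs were 5.80% in Mbnl2KO against WT and 26.9% between the knockouts. Of 8 immune and blood miRNAs 6 were tested in Mbnl1KO against WT, with miR-155-5p higher (log2 fold change 0.86) and miR-142a-5p (-0.84), miR-223-3p (-0.87) and miR-146a-5p (-0.49) lower, while their summed level was 2877 to 3131 in WT and 2688 to 3384 in Mbnl1KO. Of 9 connective tissue and vessel miRNAs 7 were tested, with miR-199a-3p (-0.43) and miR-199b-3p (-0.43) lower in Mbnl1KO and miR-143-3p (0.48) higher in Mbnl2KO. Their summed levels were between 96614 and 104341 in WT, 89403 and 115323 in Mbnl1KO and 92259 and 104015 in Mbnl2KO. The counts of miR-199a-3p and miR-199b-3p kept nearly the same ratio in every library. They were 3905 and 1898 in WT replicate 1, and 3132 and 1492 in Mbnl1KO replicate 3. The 2 names are therefore not read as separate observations. In Mbnl2KO against WT none of the 6 immune and blood miRNAs was called, and their sum was 2955 to 3109. Of 7 muscle fibre miRNAs 5 were tested, and miR-206-3p, a muscle miRNA that rises in regenerating fibres, was higher in Mbnl1KO (1.93) and Mbnl2KO (0.89). miR-142a-3p, miR-126a-3p, miR-126a-5p and miR-486a-5p were listed at 0 in all 9 libraries, which was not read as absence from muscle. Between the knockouts, miR-155-5p (1.31) and miR-206-3p (1.06) were higher in Mbnl1KO. Lower there were miR-142a-5p (-1.19), miR-223-3p (-0.98), miR-146a-5p (-0.46), miR-199a-3p (-0.45) and miR-199b-3p (-0.46), alongside miR-125b-5p (-0.43). The part of cell composition in the levels of miR-100-5p, miR-125b-5p and miR-125b-1-3p was not tested.

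Across the 9 libraries, the guides of different loci varied together to different degrees, given here as Pearson correlations of log2 normalized counts that also carry the group differences. miR-100-5p followed miR-99a-5p (r = 0.77) and miR-125b-5p (r = 0.72) more than miR-99b-5p (r = 0.30) or miR-125a-5p (r = 0.10). miR-99b-5p followed miR-125a-5p, its neighbour on chromosome 17 (r = 0.74), and miR-125b-5p (r = 0.78). Among 288 other miRNAs the most alike to miR-100-5p were miR-1981-3p (r = 0.90), miR-1a-1-5p (r = 0.89) and miR-181b-5p (r = 0.87), and to miR-125b-5p they were miR-181a-2-3p (r = 0.96), miR-142a-5p (r = 0.93) and miR-193b-5p (r = 0.92). For miR-99b-5p they were miR-204-5p (r = 0.96), miR-323-3p (r = 0.90) and miR-30a-5p (r = 0.88). For miR-99a-5p and miR-125a-5p the highest values were 0.81, with miR-1843b-3p, and 0.86, with miR-874-3p.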

How the data were processed

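The authors deposited raw counts of reads per mature miRNA for each of 9 libraries, without normalization, and no read was aligned again here. Their methods describe clipped adapters, collapsed identical reads and sense alignment without mismatches to miRBase precursors, and featureCounts for other samples. Which of these made the table is not stated in it. Labels put the libraries into 3 groups of 3. The named miRNAs were the 10 members, the let-7 miRNAs of their transcripts, miR-99a-3p, miR-351-5p, the let-7 family, marker lists, and the 3 most correlated miRNAs of each guide. These members and lists were chosen with earlier results of these data known.

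The 6 libraries of a comparison were fitted together in edgeR 4.0.16 (robust quasi-likelihood, TMM), keeping miRNAs whose mean normalized count exceeded 10, with adjusted p under 0.05 as the threshold. Arm ratios used limma 3.58.1 with a trend, and all ratios a pseudocount of 0.5. R 4.3.3 was used, with DESeq2 1.42.0 for alternatives. The tests were tried on simulated counts. Alternatives were other scalings, filters of 1 count or a mean of 100, DESeq2's Wald test, all 9 libraries in 1 fit, a pseudocount of 5, a replicate block, and leaving out each library. At totals of 4761271 to 6277018 counts, the 3p arms had far fewer counts than the guides, which limits their precision. The labels give replicate numbers but do not say that each library is another mouse. In Mbnl2KO the labelled alleles differ by replicate, so by these labels its libraries came from different mice. The p-values measure the spread between these samples, which in WT and Mbnl1KO may be technical. Intervals are exact (Clopper-Pearson) and cover counting error only.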

Additional observations from a re-analysis of the deposited data

Results flagged for a closer look

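Among the 10 members and their arm balances, 2 results differed between the knockouts by a test of that difference itself. The log2 fold change of miR-125b-5p in Mbnl1KO over Mbnl2KO was -0.43 (edgeR adjusted p = 0.0133), lower in 3 of 3 Mbnl1KO libraries than in any Mbnl2KO library. It was the 1 of 9 members called, beside 26.9% of all tested miRNAs. The log2 ratio of 5p to 3p counts of miR-125b-2 differed between Mbnl1KO and Mbnl2KO by -1.14 (limma adjusted p = 0.0275), again without overlap between the groups, beside 11.8% of 93 hairpins called. That call was lost in 4 of 9 fits without 1 library. For miR-100 the same difference was -1.64, given as a value only. It rests on 2 to 4 counts of miR-100-3p per Mbnl2KO library, and that arm was under the minimum level in the knockouts.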

How the results depend on the processing

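With library totals as the only scaling, 1 member was called in Mbnl1KO against WT (3 with TMM; 31.8% of all miRNAs), 0 in Mbnl2KO against WT (1; 2.37%) and 0 between the knockouts (1; 24.8%), and 7 of all miRNAs were called in Mbnl2KO against WT (17). Under that scaling the log2 fold changes against WT in Mbnl1KO turned to 0.13 for miR-99a-5p, 0.12 for miR-99b-5p and 0.24 for miR-125a-5p, and those between the knockouts to 0.21 for miR-99a-5p and 0.11 for miR-100-5p. With totals without miR-1a-3p, miR-125a-5p had 0.00032 in Mbnl1KO. A minimum mean of 100 left 68 calls in Mbnl1KO against WT (105) and 9 in Mbnl2KO against WT, where all 9 libraries in 1 fit gave 11. These 2 alternatives differ by construction in the miRNAs or libraries fitted. With no minimum beyond 1 count, 2 of 10 members were called in Mbnl2KO (2.48% of all miRNAs). One of these was miR-100-3p, which had 2 to 4 counts per Mbnl2KO library, so that call is not read. Between the knockouts 2 of 9 members were called with DESeq2 size factors (28.5% of all tested miRNAs), 3 of 9 with DESeq2's Wald test (26.9%) and 3 of 10 with all 9 libraries (27.4%), shares near those of all miRNAs; the third call with all 9 libraries was miR-100-3p, which passed the minimum there through WT. The cause of these changes was not tested.

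Leaving out 1 library gave 6 to 23 calls of all miRNAs in Mbnl2KO against WT (2.04% to 7.64%) with 0 to 2 called members. Each fit there without a Mbnl2KO library called miR-100-3p, which passed the minimum through WT. Without Mbnl2KO replicate 1 miR-100-3p was the only member called. Called members numbered 0 to 2 between the knockouts (18.2% to 30.1% of all miRNAs) and 2 to 3 in Mbnl1KO against WT (23.5% to 36.3%). Called arm balances ranged from 7 to 15 in Mbnl1KO against WT, 0 to 1 in Mbnl2KO against WT and 6 to 18 between the knockouts, and ratios between loci under an exact p of 0.05 from 3 to 6 (5). The signs that turned were of uncalled values: miR-125a-5p in Mbnl1KO (-0.19 to 0.0037), miR-125b-5p (-0.024 to 0.087) and miR-125b-1-3p (-0.53 to 0.029) in Mbnl2KO, the arm balances of miR-100 in Mbnl1KO (-0.074 to 0.24), miR-125a in Mbnl2KO (-0.60 to 0.10) and miR-99b between the knockouts (-0.090 to 0.45), and the Mbnl1KO minus WT log2 ratios of miR-99a-5p to let-7c-5p (-0.034 to 0.38) and of miR-99b-5p to miR-99a-5p (-0.060 to 0.058). The other fold changes and arm balances of members, and the other ratios as Mbnl1KO minus WT, kept their direction when 1 library was left out. The other differences of the ratios were not followed in this way. miR-100 fell below the minimum for arm balance in 3 of those 9 fits.

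Replicate numbers did not pair the libraries: same-numbered libraries of 2 groups had correlations of deviations between -0.15 and 0.15, and 2 of 9 libraries were closest to their own number. With a replicate block 92, 21 and 80 miRNAs were called in the 3 comparisons (105, 17 and 83 without), and the count of called members stayed at 3, 1 and 1. Low counts of miR-100-3p, miR-125a-3p and the miR-125b 3p arms limit what could be detected for them.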
